A study of Mus musculus with 14 samples.

Results

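In mouse liver, 4099 regions of H3K4me1 lay inside protein-coding genes and were listed in wild-type animals but not in animals carrying a YAP transgene. They were chosen by 2 conditions, both applied to lists of enriched regions that the authors deposited. A region of the wild-type (WT) H3K4me1 list had to lie whole within the body of a protein-coding gene, and it had to share no base with any region of the YAP H3K4me1 list. The 4099 regions were 69.4% of the whole WT list of 5905 (95% Wilson interval 68.2% to 70.6%) and 73.7% (72.5% to 74.8%) of the 5563 WT regions that lay inside genes. The other 1464 WT regions inside genes overlapped a YAP region and are called common regions, and 4223 regions of the YAP list inside genes overlapped no WT region and are called YAP-only. Absence from the YAP H3K4me1 list selected the WT-only regions, so it is a description and not a result.

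H3K4me1 and H3K4me2 denote histone H3 carrying a single methyl group or a pair of them on lysine 4. Monomethylation typically marks enhancers and the flanks of promoters, and dimethylation marks promoters and the more active enhancers, many of which lie in introns. LSD1, encoded by Kdm1a, is a demethylase that can remove both of these marks, and lysine methyltransferases of the KMT2 family place them. YAP is a transcriptional co-activator, restrained by the Hippo pathway, that binds enhancers together with TEAD factors and drives growth and a biliary-like gene program in hepatocytes.

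WT livers came from C57BL/6 wild-type mice and YAP livers from C57BL/6 mice with a YAP transgene induced by doxycycline. The labels give doxycycline at 50 mg/L in drinking water for 10 days on every sample, without saying whether WT mice drank it, and give no promoter for the transgene, no sex and no age. Chromatin was digested with micrococcal nuclease to fragments of 150 to 900 bp and immunoprecipitated for H3K4me1, H3K4me2 or LSD1, with 2 libraries for each of the 3 antibodies and each genotype and 1 input library for each genotype, 14 in all. Both libraries of an antibody and genotype were combined in 1 deposited list, so no spread between replicates, no test and no read depth can be given. The intervals printed below cover counting error only and treat regions as independent, although regions of 1 gene share a locus. A region missing from a list was not called there, which does not show that the mark was absent. In bulk liver, fewer cells of a type and less mark in each cell cannot be told apart. Positions are on mm10.

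The letters of most WT-only regions could not be read, because no genome was at hand. For 6 of them, a window around an annotated transcript start in RefSeq's GRCm38.p6 annotation overlapped the region. The 3 below are shown because they stand for the 3 H3K4me2 states described further on: listed in WT only, in both genotypes and in neither. Each is the 250 bases before the start, written 5′ to 3′ on the strand of the transcript, with the bases inside the WT-only region in capitals.
Psap, + strand, chr10:60284211-60284460, H3K4me2 in WT only: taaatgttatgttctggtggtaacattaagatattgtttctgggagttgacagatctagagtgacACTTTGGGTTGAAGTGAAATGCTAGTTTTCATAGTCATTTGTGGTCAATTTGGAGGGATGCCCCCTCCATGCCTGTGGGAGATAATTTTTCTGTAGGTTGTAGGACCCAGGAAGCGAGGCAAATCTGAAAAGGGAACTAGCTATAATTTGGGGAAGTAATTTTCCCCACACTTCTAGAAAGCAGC
Nfix, - strand, chr8:84772876-84773125, H3K4me2 in both genotypes: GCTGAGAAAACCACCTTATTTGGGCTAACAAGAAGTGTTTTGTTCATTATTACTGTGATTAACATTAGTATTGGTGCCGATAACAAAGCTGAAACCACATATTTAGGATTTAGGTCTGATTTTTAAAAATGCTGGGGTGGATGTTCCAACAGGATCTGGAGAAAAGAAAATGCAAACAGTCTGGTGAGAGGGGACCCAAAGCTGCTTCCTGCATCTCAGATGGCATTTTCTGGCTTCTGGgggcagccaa
D130037M23Rik, a transcript inside Erbin, + strand, chr13:103912516-103912765, no H3K4me2: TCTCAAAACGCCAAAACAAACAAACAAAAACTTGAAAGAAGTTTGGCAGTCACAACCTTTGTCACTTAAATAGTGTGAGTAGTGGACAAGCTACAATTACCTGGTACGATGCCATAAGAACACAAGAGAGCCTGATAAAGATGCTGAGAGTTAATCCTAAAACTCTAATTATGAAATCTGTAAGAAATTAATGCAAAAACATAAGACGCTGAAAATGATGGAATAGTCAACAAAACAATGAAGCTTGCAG

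The 3 windows shown held less G and C than the median of all windows. Their GC content was 41.6% for Psap, 42.0% for Nfix and 35.2% for D130037M23Rik, against a median of 52.4% over all 32851 windows of the same 250 bases. They held 1, 1 and 3 CpG dinucleotides, against a median of 6. Over the whole windows, which run 50 bases past the start, the median of all 6 overlapped ones was 43.8% GC, and those at Gm38787 (51%) and Gm35808 (49%) were near the median of all windows, 52.7%. Psap encodes prosaposin, the precursor of lysosomal sphingolipid activators, and its region (60284276 to 60284468) lay 1.587 kb from the nearest YAP H3K4me1 region. Nfix encodes a nuclear factor I transcription factor, and its region (84772886 to 84773316) lay 14.9 kb from one. The region in Erbin, which encodes a scaffold protein of cell junctions, ran from 103912413 to 103912924 and lay 3.303 kb from one.

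The WT-only regions were short, and most had a −log10 q-value of 0. Their median length was 279 bp (range 175 to 1561 bp), against 362 bp for common and 298 bp for YAP-only regions. The authors' score, 10 times −log10 of the p-value, had a median of 40 in the WT-only and the common regions, both from the WT list, and ran from 20 to 93 in the WT-only regions. Only 29.9% of the WT-only regions (1226 of 4099) had a −log10 q-value above 0, against 41.2% of the common regions. The highest-scoring WT-only region, of 255 bp, lay in Man1a2, which encodes a Golgi mannosidase (chromosome 3, 100682445 to 100682699, score 93). The next ones lay in Kdm3b, which encodes a demethylase of H3K9, and Ssbp3 (score 88 each), then in Ctnnb1, Arid5b, Insr, Gsk3b, Sh3pxd2a and Mkln1 (score 80 each). Among these 9 regions, H3K4me2 was listed in both genotypes at 3 (Man1a2, Insr, Gsk3b), in WT only at 3 (Ctnnb1, Arid5b, Sh3pxd2a) and in neither at 3 (Kdm3b, Ssbp3, Mkln1). Over all 4099 WT-only regions the shares were 32.3% in both genotypes, 17.0% in WT only, 47.5% in neither and 3.15% in YAP only. So few regions cannot show whether score and H3K4me2 state go together.

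A single base separated the regions chosen from those left out. Of the WT-only regions, 148 lay within 100 bp of a YAP region and 3 of them touched one without a shared base. Of the common regions, 152 overlapped a YAP region by 100 bp or less, the least by 1 bp, with a median overlap of 237 bp. Region names were numbered up to 10563 in the WT list and 16113 in the YAP list, against the 5905 and 6274 regions deposited. What lies behind the gap in numbering is not given in the sources used here, and its part in the choice of regions was not tested.

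The WT-only regions lay in 1664 of 21883 protein-coding genes, so 7.6% of genes were hosts. They were gathered in a part of these genes: 826 hosts held 1 region, 625 held 2 to 4 and 213 held 5 or more, and these 213 genes held 1682 regions. Neighbouring WT-only regions of 1 gene were separated by a median of 2.85 kb (interquartile range 0.942 to 8.52 kb). Host genes were long, with a median of 63.4 kb against 17.2 kb for all genes. A WT-only region was found in 0.606% of genes under 10 kb, 5.16% of genes of 10 to 30 kb, 15.8% of genes of 30 to 100 kb and 19.7% of genes of 100 kb or more.

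The 10 genes with most WT-only regions were ranked by number, not per length, and were of varied function. Nfia, a nuclear factor I transcription factor (chromosome 4, 97578066 to 98118876), held 22 (4.07 per 100 kb), along with 10 common and 12 YAP-only regions. Mtss1, a scaffold that binds membrane and actin (chromosome 15, 58941234 to 59083956), held 21 (14.7 per 100 kb), along with 7 common and 18 YAP-only regions. Shb, an SH2-domain adaptor, and Zfand3, a zinc finger protein, held 19 each. Nr3c1, the glucocorticoid receptor, Daam1, a formin of Wnt signalling, Rere, a transcriptional corepressor, and Nfib, another nuclear factor I, held 18 each. Cpeb4, a regulator of cytoplasmic polyadenylation, and Pik3r1, the regulatory subunit of phosphoinositide 3-kinase, held 15 each. Every one of these 10 genes also held common and YAP-only regions, so its H3K4me1 was listed at other places in YAP livers.

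**Figure D1:**
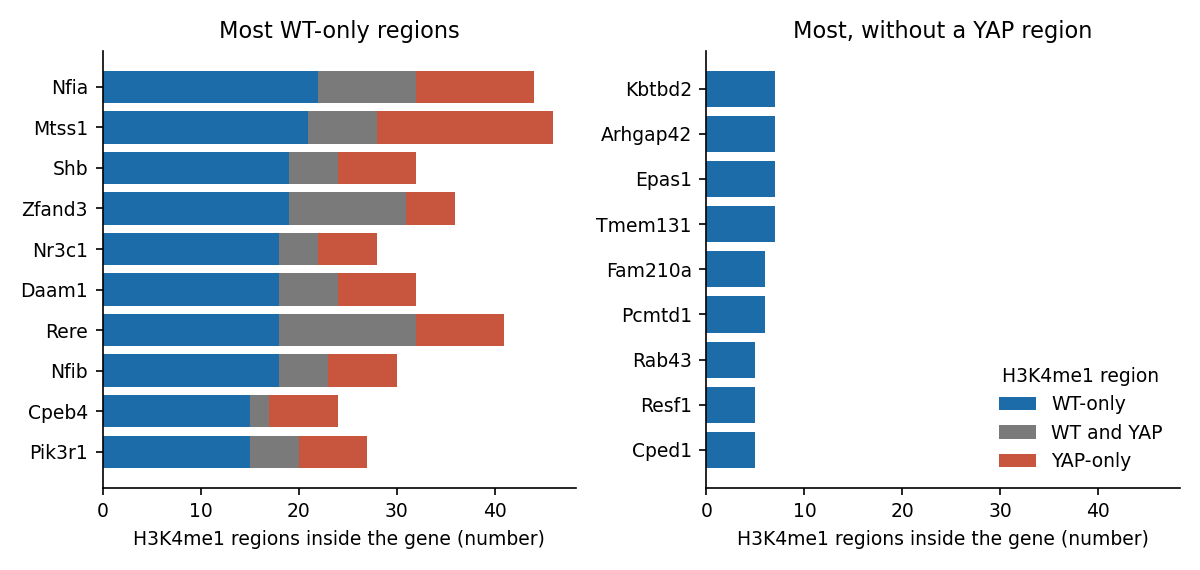
Number of H3K4me1 regions (horizontal axis) inside each of the 10 genes with most WT-only regions (left) and 9 of those with most among genes without any YAP region (right), coloured by whether the region was WT-only, common to WT and YAP, or YAP-only. Genes on the left hold all 3 classes, from 24 regions in Cpeb4 to 46 in Mtss1, and those on the right hold 5 to 7 regions, all WT-only.

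In 584 host genes, or 2.67% of all protein-coding genes, the YAP list had no H3K4me1 region at all. They held 849 WT-only regions, and 67 of them held 3 or more. Kbtbd2, an adaptor of a CUL3 ubiquitin ligase, Arhgap42, a GTPase-activating protein, Epas1, the hypoxia-inducible factor HIF-2α, and Tmem131 held 7 each. Fam210a and Pcmtd1 held 6 each, and Rab43, Resf1 and Cped1 held 5 each. The 7 regions of Epas1 lay 237.7 to 270.5 kb from the nearest YAP region, with H3K4me2 in both genotypes on 4, in WT only on 2 and in neither on 1. Over the whole Epas1 gene, H3K4me2 spanned 10.7 kb of WT and 7.56 kb of YAP chromatin.

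Most WT-only regions nevertheless had a YAP region nearby. The median distance to the nearest YAP H3K4me1 region was 3.55 kb (3.23 to 3.91 kb), with an interquartile range of 0.936 to 25.6 kb. Within 1 kb of a YAP region lay 26.4% (25.1% to 27.8%), within 5 kb 55.5% (53.9% to 57.0%) and within 50 kb 79.7% (78.4% to 80.9%). A YAP region lay in the same gene for 3250 of the WT-only regions (79.3%), and for 3236 of all the WT-only regions (78.9%) the nearest YAP region itself lay in the host gene. YAP-only regions were farther from the WT list, with a median of 7.26 kb (6.42 to 8.27 kb) and 45.4% (43.9% to 46.9%) within 5 kb. The WT list being the shorter one, its number of regions and this distance were not told apart.

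At the far end, 621 WT-only regions (15.15%) lay over 100 kb from any YAP region. The farthest, in Diaph3, a formin (chromosome 14, 86684938 to 86685286), lay 7127 kb away, with H3K4me2 listed in WT only. Regions in Zfp654 (5494 kb), Tcf4, a basic helix-loop-helix factor (3976 kb), Rasa1, a GTPase-activating protein for Ras (3942 kb), and Grb10, an adaptor of insulin signalling (3769 kb), followed. Scores of these 5 ran from 25 in Zfp654 and Rasa1 to 46 in Grb10.

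**Figure D2:**
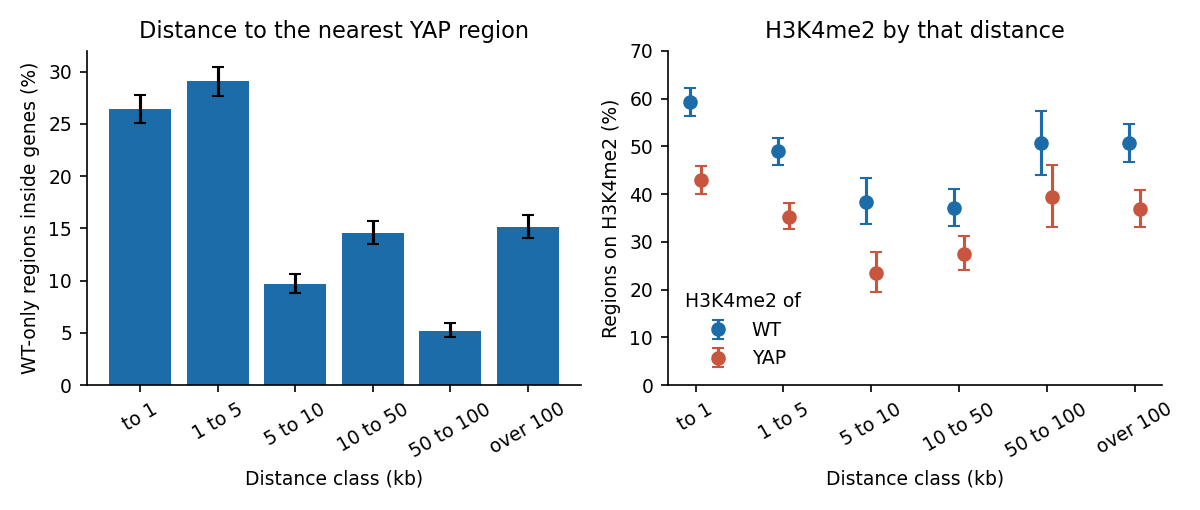
Left, share of the 4099 WT-only regions (percent) in 6 classes of distance to the nearest YAP H3K4me1 region (kb). Right, share of the regions of each class that overlapped H3K4me2 of WT or YAP livers (percent); bars are Wilson 95% intervals. The WT share is above the YAP share in all 6 classes, and both are lowest between 5 and 50 kb.

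H3K4me2 was not used to choose the regions, and it was listed less often on them in YAP than in WT livers. H3K4me2 overlapped 2021 WT-only regions in WT, or 49.3% (47.8% to 50.8%), and 1454 in YAP, or 35.5% (34.0% to 36.9%). By state, 1325 carried it in both genotypes, 696 in WT only, 129 in YAP only and 1949 in neither. Regions carrying H3K4me2 in 1 genotype thus had it in WT more often than in YAP. By bases, WT H3K4me2 covered 47.3% of the length of the WT-only regions and YAP H3K4me2 32.3%. The median distance to the nearest H3K4me2 region was 80 bp in WT and 1034 bp in YAP. The share in YAP minus that in WT was -13.8 points in WT-only regions, -11.1 points in common regions and 0.05 points in YAP-only regions. The lower share in YAP was thus not particular to WT-only regions. The whole H3K4me2 lists held 54219 regions in WT and 51676 in YAP, which is a number of regions and not a share.

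Common regions carried H3K4me2 more often than WT-only regions, in 65.1% in WT and 54.0% in YAP. The share in WT-only minus that in common regions was -15.8 percentage points in WT (-18.6 to -12.9, Newcombe's method) and -18.6 points in YAP (-21.5 to -15.6). YAP-only regions carried it in 39.4% in each genotype. WT-only minus YAP-only regions gave 9.93 points in WT (7.80 to 12.04) and -3.95 points in YAP (-6.03 to -1.88). Among regions on WT H3K4me2, 34.4% of WT-only regions (696 of 2021) had none in YAP, against 24.2% of common (231 of 953) and 21.3% of YAP-only regions. The difference from common regions was 10.2 points (6.72 to 13.6) and that from YAP-only regions 13.2 points (10.3 to 16.0). None of these intervals of differences spans both signs. They cover counting error only and treat regions as independent, and no replicate spread is available to set beside them.

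**Figure D3:**
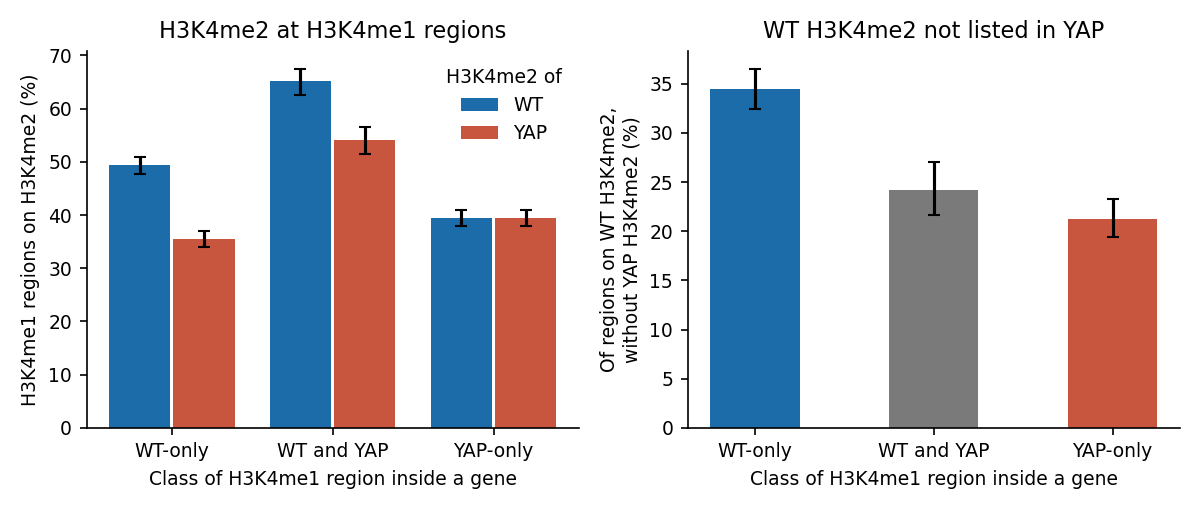
Left, share of H3K4me1 regions inside genes (percent) that overlapped H3K4me2 of WT (blue) or YAP livers (red), for WT-only, common and YAP-only regions. Right, among regions on WT H3K4me2, the share with no YAP H3K4me2; bars are Wilson 95% intervals. The right panel shows 34.4% for WT-only, 24.2% for common and 21.3% for YAP-only regions.

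The same order was found when both classes were taken from the same genes and when lengths were alike. In 583 genes that held WT-only and common regions, 37.3% of WT-only regions on WT H3K4me2 (393 of 1055) had none in YAP, against 26.8% of common regions (212 of 790). For H3K4me1 regions under 250 bp the shares were 32.6% and 22.8%, for 250 to 400 bp 35.8% and 24.4%, and for 400 bp or more 34.9% and 24.7%. Both classes thus kept their order in each of the 3 length classes.

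The share also varied with the number of WT-only regions in the gene. Where a gene held 1, 24.0% (20.4% to 28.1%) of those on WT H3K4me2 had none in YAP. The share was 33.7% (30.6% to 37.0%) in genes with 2 to 4, 40.2% (35.8% to 44.8%) in genes with 5 to 9 and 44.7% (39.0% to 50.5%) in genes with 10 or more. H3K4me2 was lowest in both genotypes where the nearest YAP H3K4me1 region was 5 to 50 kb away. At 1 kb or less it was listed on 59.3% in WT and 42.9% in YAP, at 5 to 10 kb on 38.4% and 23.5%, and over 100 kb away on 50.7% and 36.9%. Regions in genes without a YAP H3K4me1 region carried H3K4me2 in 55.1% in WT and 41.9% in YAP, and 28.4% (24.5% to 32.7%) of those on WT H3K4me2 had none in YAP. In genes that did hold a YAP region the last share was 36.3% (33.9% to 38.7%).

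Seen from the H3K4me2 list and without regard to length, 30.5% (28.5% to 32.7%) of WT H3K4me2 regions on WT-only H3K4me1 regions had none in YAP. This was close to 28.8% (28.3% to 29.3%) of all WT H3K4me2 regions inside genes, while on common regions the share was 24.8% (22.1% to 27.8%). Regions counted inside genes lay whole within a gene, whereas those on H3K4me1 regions only had to overlap these. H3K4me2 regions on WT-only regions were longer than those inside genes, with a median of 1243.5 bp against 565 bp. Short WT H3K4me2 regions were those most often missing in YAP, so regions were also compared within classes of their own length. Of WT H3K4me2 regions under 500 bp, 71.3% of those on a WT-only H3K4me1 region (330 of 463) had no YAP counterpart, against 62.3% on a common region and 46.6% of those in genes without a WT-only region and off any H3K4me1 region. From 500 to 1000 bp the shares were 45.8% (158 of 345), 33.5% and 18.3%, and from 1000 to 2000 bp 16.8% (51 of 304), 10.9% and 3.16%. At 2000 bp or more they were 1.32% (9 of 682), 0.604% and 0.752%. The intervals of regions on WT-only and on common H3K4me1 regions overlapped in all 4 classes. In host genes but off any H3K4me1 region, the shares were 57.9%, 29.3%, 6.02% and 0.847% in the same order of length. Below 2000 bp, those on WT-only regions lay above both kinds of H3K4me2 region that were off H3K4me1, with intervals apart.

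**Figure D4:**
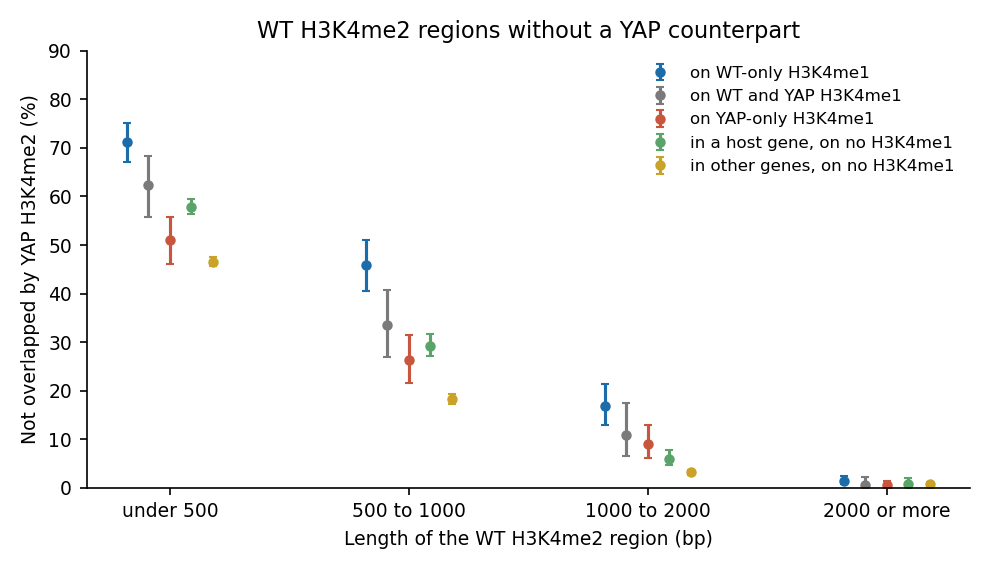
Share of WT H3K4me2 regions without an overlapping YAP H3K4me2 region (percent), by their own length (bp) and by the H3K4me1 they lie on; bars are Wilson 95% intervals. In every length class up to 2000 bp the point for WT-only H3K4me1 is highest, from 71.3% under 500 bp to 16.8% at 1000 to 2000 bp, with an interval that overlaps that of common regions.

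LSD1 itself was rarely listed on WT-only regions. An LSD1 region overlapped 8 of 4099 in WT (0.195%, 0.0989% to 0.385%) and 14 in YAP (0.342%, 0.204% to 0.573%). Within 5 kb, LSD1 was listed for 164 regions in WT (4.00%) and 320 in YAP (7.81%). Common regions had 4.37% and 8.20% within 5 kb, so the classes lay close together. The LSD1 lists held 1718 regions in WT and 3353 in YAP.

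Over whole gene bodies, H3K4me2 covered fewer bases in YAP in most host genes. Of 1659 hosts with any H3K4me2, 1208 (72.8%) had fewer covered bases in YAP, against 58.1% of all genes. The median log2 ratio of YAP over WT, with 500 bases added to each, was -0.18 (-0.20 to -0.16) in hosts and -0.05 in all 14136 genes with H3K4me2. It was -0.14 in hosts with 1 WT-only region, -0.30 with 3 or more, -0.37 with 5 or more and -0.45 with 10 or more, where 44 of 49 genes had fewer bases in YAP. In genes of 30 kb or more without a WT-only region it was -0.04, and in genes of common regions -0.16. A log2 ratio of -1 or lower was found in 54 hosts (3.25%), against 2.56% of all genes and 2.25% of genes of common regions. The share of hosts was near the 3.13% of genes of 30 kb or more without a WT-only region. A log2 ratio of 1 or higher was found in 5 hosts (0.301%), against 3.52% of all genes and 0.132% of genes of common regions. H3K4me2 in WT spanned a median of 5.09 kb in hosts and 2.27 kb over all genes. The part of this amount in the ratios was not tested.

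**Figure D5:**
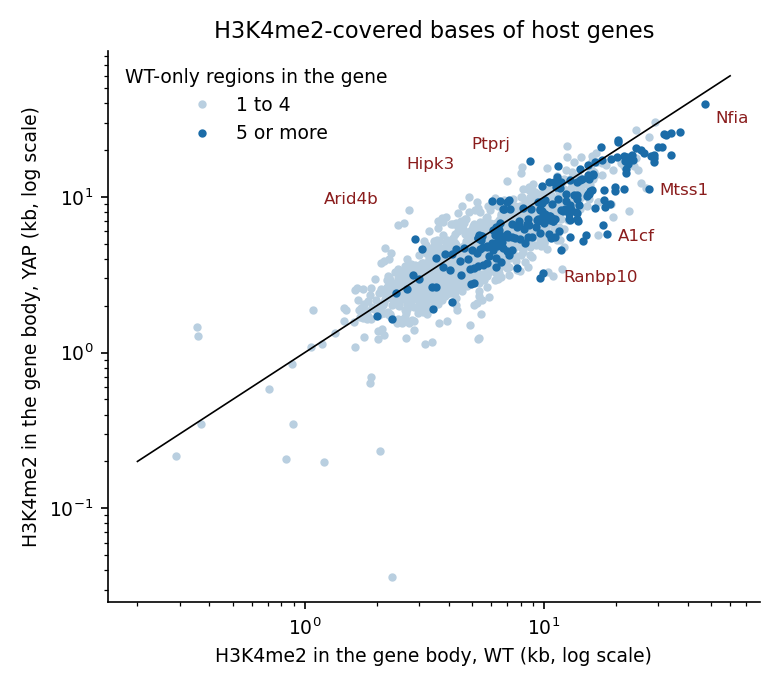
Bases of the gene body covered by H3K4me2 (kb, log scales) in WT (horizontal) and YAP livers (vertical) for 1655 host genes, 1 point each, darker with 5 or more WT-only regions; the line marks equal values. 4 hosts with H3K4me2 in 1 genotype only and 5 without any are not drawn. Most points lie below the line, with A1cf and Ranbp10 far below it and Arid4b, Hipk3 and Ptprj above.

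Among hosts with 3 or more WT-only regions, A1cf had the lowest H3K4me2 ratio after Ranbp10. It is thus an extreme picked by that ranking, as the median log2 ratio of such hosts was -0.30. A1cf (chromosome 19, 31868756 to 31952365) encodes an RNA-binding cofactor of apolipoprotein B mRNA editing, and its H3K4me2 spanned 18.4 kb in WT but 5.75 kb in YAP (log2 -1.59). Its 11 WT-only regions lay between 31879984 and 31900672. In order of position they were 402, 621, 377, 296, 357, 277, 241, 179, 311, 194 and 382 bp long. H3K4me2 was listed in WT only on the first 7 and on the last, in both genotypes on the 179 bp region, and in neither on the 311 bp and 194 bp regions. The nearest YAP H3K4me1 region lay 0.287 to 9.26 kb away, and the gene also held 1 common and 3 YAP-only regions.

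Ranbp10 (10.9 kb in WT and 3.11 kb in YAP, log2 -1.66) had the lowest ratio among hosts with 3 or more WT-only regions. It was followed after A1cf by Cmah, a sialic acid hydroxylase (log2 -1.52), and Tmem30a, a subunit of lipid flippases (9.59 kb in WT and 3.04 kb in YAP). H3K4me2 was in WT only on all 3 WT-only regions of Cmah and all 5 of Tmem30a. Fam214a, Srsf4, a splicing factor, Aff4, a scaffold of the super elongation complex, Arhgap42, Atxn2, an RNA-binding protein, and Abcd3, a transporter of peroxisomes, had log2 ratios from -1.50 to -1.31. Mtss1, with 27.4 kb in WT and 11.2 kb in YAP (log2 -1.25), had H3K4me2 on 9 of its 21 WT-only regions in WT, and on 3 of these in YAP. Its longest WT-only region, of 1561 bp (59013370 to 59014930), was the longest of all 4099 and had 370 bp of H3K4me2 in WT and 0 in YAP.

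Some host genes had more H3K4me2 in YAP. Arid4b, a chromatin protein, had 2.46 kb in WT and 6.62 kb in YAP (log2 1.26). Hipk3, a protein kinase (4.87 and 10.1 kb), Ptprj, a receptor tyrosine phosphatase (8.72 and 16.9 kb), Kat6b, a histone acetyltransferase (3.75 and 7.35 kb), and Raly, an RNA-binding protein (3.59 and 7.04 kb), had log2 ratios from 0.88 to 0.98. Hipk3 held 4 WT-only, 2 common and 14 YAP-only H3K4me1 regions, and Ptprj held 5, 3 and 21. Arid4b, with the highest ratio among hosts with 3 or more WT-only regions, held 3 WT-only regions and no other H3K4me1 region. Psap, whose sequence is shown above, was similar in H3K4me2, with 5.86 kb in WT and 8.74 kb in YAP, although the region shown carried it in WT only.

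Counts of hosts in gene lists of liver function are read against the 7.6% of all genes that were hosts. H3K4me2 bases were fewer in YAP in 72.8% of hosts and in 58.1% of all genes with H3K4me2. The former value is set beside the hosts of a list and the latter beside a whole list. The lists also differed in gene length, with which the share of hosts varied as given above. Of 25 hepatocyte transcription factor genes (median 33.1 kb), 10 (40%) were hosts, and the whole list held 70 WT-only, 18 common and 37 YAP-only regions. All 10 had fewer H3K4me2 bases in YAP (median log2 -0.41): Nfia (22 WT-only regions), Nfib (18), Zbtb20 (12), Nr5a2 (7), Gata4, Nfix, Prox1, Onecut1, Nfic and Klf15. Nfia had 46.9 kb in WT and 39.4 kb in YAP, and Nfib 30.1 and 21.1 kb. The whole list of 25 also had fewer bases in YAP in 22 genes, so fewer bases were found beyond its hosts.

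Of 28 nuclear receptor genes (median 46.8 kb), 10 (35.7%) were hosts with 60 WT-only regions. H3K4me2 bases were fewer in YAP in 9 of these 10 and in 21 of the whole list. Nr3c1 had 21.5 kb in WT and 11.3 kb in YAP, and H3K4me2 was in WT only on 8 of its 18 WT-only regions. Nr1h4, the bile acid receptor FXR, had 19.79 and 10.98 kb, with 9 WT-only, 1 common and 0 YAP-only regions. Rxra, the shared partner of many nuclear receptors, had 28.9 and 18.5 kb. Rora, a retinoid-related orphan receptor, had 17.5 and 17.4 kb despite 10 WT-only regions. Among 25 genes of growth factors, hormones, their receptors and signalling (median 78.8 kb), 11 (44%) were hosts with 59 WT-only regions: Insr, the insulin receptor, held 14, Egfr, the EGF receptor, 10, Ghr, the growth hormone receptor, 8 and Igf1, a growth factor, 7. H3K4me2 bases were fewer in YAP in 10 of these 11 hosts and in 19 of the 25 genes. H3K4me2 of Egfr spanned 29.0 kb in WT but 17.9 kb in YAP, whereas Insr, the 1 host with more, had 11.8 and 12.4 kb.

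Of 40 lipid metabolism genes (median 29.7 kb), 12 (30%) were hosts, and the whole list held 38 WT-only and 38 YAP-only regions. H3K4me2 bases were fewer in YAP in 10 of the 12 hosts and in 31 of the 40 genes. Gpam, the first enzyme of glycerolipid synthesis, held 10, with H3K4me2 in both genotypes on 8 of them. Elovl5 (6) and Elovl2 (5), fatty acid elongases, and Acsl1 (4), an acyl-CoA synthetase, followed. H3K4me2 of Acsl1 spanned 24.7 kb in WT but 14.8 kb in YAP. Of 24 glucose metabolism genes (median 23.9 kb) 6 (25%) were hosts, led by Insr and Foxo1 (9), with fewer bases in YAP in 3 and more in 3. Of 24 bile acid genes (median 29.2 kb), 5 (20.8%) were hosts with 7 WT-only regions, including 2 in Abcb11, the canalicular export pump for bile salts, 2 in Akr1d1, a reductase of bile acid synthesis, and 1 each in Abcb4 and Cyp27a1. Of 40 amino acid and urea cycle genes (median 22.0 kb) 4 (10%) were hosts with 1 region each (Dpys, Slc7a2, Dpyd and Gldc), a share near that over all genes. Of 30 cytochrome P450 genes (median 22.9 kb) 0 were hosts. For the P450 genes H3K4me2 covered fewer bases in YAP in 24 and more in 2, without any WT-only region. It covered fewer in 34 and more in 6 of the amino acid and urea cycle genes. For the bile acid genes these counts were 19 and 5.

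Plasma protein genes (median 19.4 kb) gave 4 hosts of 39 found (10.3%), with 11 of their 19 WT-only regions in A1cf, which is no plasma protein itself. C3, the central complement component, and Cp, ceruloplasmin, held 1 each. H3K4me2 bases were fewer in YAP in 27 genes of the whole list and more in 11.

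Of 30 YAP target genes (median 50.5 kb), 3 (10%) were hosts, and the list held 7 WT-only regions against 39 YAP-only regions. Over all genes there were 4099 WT-only and 4223 YAP-only regions, and 15.8% of genes of 30 to 100 kb were hosts. Asap1, an Arf GTPase-activating protein, held 3 WT-only and 11 YAP-only regions, Fndc3b 3 and 9, and Wwc1, the Hippo pathway protein KIBRA, 1 and 5. These 3 hosts all had more H3K4me2 bases in YAP, as had 21 genes of the whole list against 9 with fewer: Asap1 7.23 kb in WT and 8.05 kb in YAP, Fndc3b 5.39 and 7.96 kb, and Wwc1 8.13 and 9.95 kb. Ccn1 and Ccn2, classical YAP targets, held no WT-only region, and Ccn2 had 3.18 kb of H3K4me2 in YAP and 0 in WT. Of 28 Hippo pathway genes (median 86.7 kb) 7 (25%) were hosts, and the whole list held 11 WT-only against 29 YAP-only regions. Yap1 held 2 WT-only regions, both without H3K4me2, 12.8 and 21.4 kb from a YAP region. Of 31 cell cycle genes (median 14.7 kb) 1 was a host (Cdk6, with 1 WT-only and 8 YAP-only regions).

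Lists of the polyamine axis and of enzymes acting on H3K4 were also counted, against 7.6% hosts among all genes. Median gene lengths were 13.8 kb for polyamine and hypusination genes, 39.0 kb for LSD1 complexes and 45.9 kb for H3K4 methyltransferases and KDM5. Kdm1a, which encodes LSD1, and Odc1, the first enzyme of polyamine synthesis, held none. Of 23 polyamine and hypusination genes 3 (13.04%) were hosts: Atp13a3, a polyamine transporter (4 WT-only regions), Oaz2, an antizyme that restrains ornithine decarboxylase (2), and Amd1, S-adenosylmethionine decarboxylase (1). Of 23 genes of LSD1 complexes 6 (26.1%) were hosts with 9 WT-only regions, led by Zeb1 (3) and Zmym2 (2). All 6 had fewer H3K4me2 bases in YAP, as had 15 genes of the whole list against 7 with more. Of 23 genes of H3K4 methyltransferases and KDM5 demethylases 3 (13.04%) were hosts: Kmt2e (7), Kmt2c (2) and Kdm5b (2).

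Marker lists of other liver cells are set beside the 7.6% over all genes and held 0 to 2 hosts each. Of 20 lymphocyte and 22 stellate cell and fibroblast marker genes, with median lengths of 11.5 and 17.9 kb, 0 were hosts. Hosts were 1 of 21 macrophage markers (Mertk), 2 of 23 endothelial markers (8.70%, Nrp1 with 8 and Stab2 with 1) and 2 of 26 biliary and progenitor markers (7.69%, Notch2 and Onecut1, which hepatocytes also express). The endothelial and biliary shares were thus near that over all genes, without regard to length. Endothelial markers had a median length of 43.1 kb, and 15.8% of genes of 30 to 100 kb were hosts. Biliary markers had a median of 20.3 kb, and 5.16% of genes of 10 to 30 kb were hosts. The direction of H3K4me2 varied between these marker lists, and biliary and endothelial markers were close to even. Over all genes with H3K4me2, 58.1% had fewer bases in YAP. More bases in YAP were found in 10 macrophage markers against 1 with fewer, 4 lymphocyte markers against 1, 11 biliary markers against 9, 10 endothelial markers against 11 and 3 stellate markers against 10. The part of cell composition in the H3K4me2 values of the WT-only regions was not tested.

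Along the host gene, WT-only regions lay towards the start. Over 3277 pairs of region and gene with a known strand, 80.0% (78.6% to 81.3%) of midpoints lay in the first 50% of the gene body. With the body divided into 10 equal parts, the first held 23.1% and the last 1.80%, with a decline at each step between. They seldom lay at promoters themselves: 0.702% were within 1 kb of an annotated transcript start, 27.7% within 5 kb and 67.8% within 20 kb. WT H3K4me2 regions inside host genes lay within 1 kb of a start in 6.95%. Of these H3K4me2 regions, 78.4% (77.5% to 79.3%) lay in the first 50% of the gene and 31.8% in the first of the 10 parts. Lying towards the start was thus not particular to the WT-only regions. Common regions were somewhat nearer the gene start (83.7% in the first 50%, 81.5% to 85.6%) and YAP-only regions somewhat farther (78.1%, 76.7% to 79.4%, an interval that overlaps that of the WT-only regions). Exons and introns were not told apart here.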

How the data were processed

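ChIP-seq of mouse liver was used as 6 deposited region lists, each combining the 2 libraries of an antibody and a genotype. The submitters' processing notes name deepTools 3.3.0, bedtools 2.26.0, Picard 1.126, SAMtools 1.7, BWA and Trimmomatic 0.39, with mm10 as build. How regions were called, with which threshold and inputs, and how libraries were combined is not given in the sources used here. Libraries had 15 cycles of PCR. The lists give a score, a signal value and −log10 p- and q-values, all deposited by the authors. The score equalled 10 times −log10 p, without decimals, in all 5905 WT and 6274 YAP H3K4me1 regions. −log10 p started at 2.05, and −log10 q was 0 for 3986 WT and 2378 YAP regions, so the lists are permissive. Score and signal only described, ranked or filtered regions within a list.

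Chromosomes 1 to 19, X and Y were used, and no H3K4me1 region lay on X or Y. Genes came from an NCBI RefSeq table of GRCm38.p6 (21883 protein-coding genes, without exons). Strand came from RefSeq promoter windows and was known for 1336 of 1664 hosts. Regions overlapped if they shared 1 bp. 41 WT-only regions lay in more than 1 gene and count for each. H3K4me2 bases per gene body were compared between genotypes on a log2 scale, with 500 bases added to both. Intervals are Wilson's for shares, Newcombe's for differences and order statistics for medians, all at 95%. Python 3.11.15, numpy 2.4.6, pandas 2.3.3, scipy 1.17.1, statsmodels 0.14.6 and matplotlib 3.10.9 were used, and interval code was checked against bedtools 2.31.1 on simulated regions.

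Named genes, leaving out Gm and Rik symbols, were the 10 with most regions, the 10 with most and no YAP region, those of the 10 highest-scoring, 5 farthest and 5 longest regions, the 10 lowest and 5 highest H3K4me2 ratios among hosts with 3 or more regions, up to 4 per list, and Kdm1a, Odc1, Yap1, Ccn1 and Ccn2. Psap, Nfix and Erbin were added for their sequences, and other genes named within a list complete its count. The 20 gene lists and the regions were chosen with earlier results of these data known. C5 was not found by that symbol. Some genes that this rule names are not reported here.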

Additional observations from a re-analysis of the deposited data

How the results depend on the processing

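Of 65 alternative values, 28 stayed within 1.5 times a count or inside the interval of a value and 37 did not. Only differences of shares and log2 ratios could change sign, and 0 of them did. Counts, shares and distances cannot be negative. Taking only H3K4me1 regions with a −log10 q above 0 in both lists left 1352 WT-only regions, 829 hosts and 276 hosts without a YAP region, a median distance of 4.30 kb, 53.1% within 5 kb of a YAP region, H3K4me2 on 57.1% in WT and 40.3% in YAP, and 82.0% in the first 50% of the gene. The higher-scoring 50% of both lists left 2186 regions (78.0% of WT regions inside genes), 42.1% of hosts without a YAP region, a distance of 6.55 kb, 45.9% within 5 kb, and H3K4me2 on 56.0% in WT and 39.5% in YAP. Counting a YAP region within 1 kb as shared left 54.3% of WT regions inside genes as WT-only, and asking for 50% reciprocal overlap left 87.1%. Between midpoints the median distance was 3.92 kb.

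H3K4me2 covering at least 50% of a region was found for 46.5% in WT and 32.4% in YAP, H3K4me2 within 1 kb for 61.4% and 49.7%, and the higher-scoring 50% of H3K4me2 regions for 29.2% and 22.1%. Within the middle 50% of lengths, WT-only minus common regions was -15.3 points in YAP. Chosen after seeing the data were the share of WT H3K4me2 not in YAP and its settings, and the genes holding both kinds of region. With the higher-scoring 50% of WT H3K4me2 the difference in that share was 6.45 points (3.46 to 9.14). LSD1 lay within 1 kb of 0.829% of regions in WT and 1.71% in YAP, and within 5 kb of 4.00% and 7.81%. The median log2 H3K4me2 ratio of hosts was -0.20 with 100 bases added, -0.14 with 2000 and -0.11 with the higher-scoring 50% of H3K4me2. For all genes it was -0.062, -0.032 and -0.029 in the same order, and also -0.062 with 5 kb on both sides. Adding more bases draws each log2 ratio towards equality by its formula. Stricter lists hold fewer regions, and the cause of the shifts with them and with the other settings was not tested.

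No paired analysis was possible because both libraries of a group share 1 list. For the same reason no fit without a replicate was made. Read depth is unknown.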
